A study of Homo sapiens with 8 samples.

Results

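The integrated stress response genes described here are ATF4, the transcription factor at its centre, and 9 factors and effectors that act with it or downstream of it: ATF3, ATF5, DDIT3, CEBPB, DDIT4, TRIB3, CHAC1, PPP1R15A and NUPR1. They were taken by name from the table of gene counts, which holds 25435 genes. All 10 were present, and all 10 were among the 13213 genes that passed the filter on low counts. The libraries came from HGC27, an established human gastric carcinoma line described in the labels as lacking p53. The series title speaks of p53 knockout and knockdown instead of overexpression. The groups here follow the sample labels. Control cells overexpressed GFP, and the other cells overexpressed a cancer mutant of p53, either R175H, R248Q or R273H. Each of these 4 groups has 2 mRNA libraries. R175H is known to disturb the fold of the part of p53 that binds DNA, and R248Q and R273H to replace residues that contact DNA. The labels do not say how expression was driven, or whether each line was 1 clone or a pool. Nor do they say whether the 2 libraries of a group came from separate cultures. P-values therefore measure only the spread between these libraries, pooled over the 4 groups and moderated across genes.

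The integrated stress response starts when a kinase senses amino acid shortage, unfolded proteins in the endoplasmic reticulum, viral RNA or a lack of haem and phosphorylates the translation factor eIF2. General protein synthesis then falls, while ATF4 mRNA, which carries short upstream reading frames, is translated more. ATF4 protein induces genes of amino acid supply and a layer of further factors, among them ATF3, ATF5 and DDIT3 (CHOP), and finally PPP1R15A, which removes the phosphate from eIF2. Counts of ATF4 mRNA therefore do not measure ATF4 protein or its translation. In tumour cells the response is known both for supporting survival under nutrient or oxygen shortage and, when prolonged, for promoting cell death.

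ATF4 and its partners of the C/EBP family are known to bind a composite element, called CARE, and ATF and CREB factors a palindrome called CRE. Promoter sequences were taken from RefSeq on GRCh38.p14, from 250 bases before to 50 after each annotated transcript start. They matched 9 of the 10 genes by symbol, with 17 starts. Both strands were searched for TGATGNAA (CARE), TGACGTCA (CRE), the endoplasmic reticulum stress element (CCAAT, then any 9 bases, then CCACG) and ACGTG and GCGTG, the core letters of sites for the hypoxia factor HIF. In GENCODE 29 on GRCh38, ATF5 (chr19:49928702-49933935) and PPP1R15A (chr19:48872392-48876057) share chromosome 19, and TRIB3 (chr20:362835-397559) and CEBPB (chr20:50190734-50192689) share chromosome 20. ATF4 lies at chr22:39519695-39522685, DDIT3 at chr12:57516588-57521737 and DDIT4 at chr10:72273920-72276036. The windows of 3 genes are shown, up to the transcript start. DDIT4 and CHAC1 were called higher in R175H and in R273H, and PPP1R15A in neither. TRIB3 was also called higher in R175H and in R273H, and its windows are not shown. Capitals mark any match to the letters searched.
DDIT4, chr10:72273674-72273923, plus strand: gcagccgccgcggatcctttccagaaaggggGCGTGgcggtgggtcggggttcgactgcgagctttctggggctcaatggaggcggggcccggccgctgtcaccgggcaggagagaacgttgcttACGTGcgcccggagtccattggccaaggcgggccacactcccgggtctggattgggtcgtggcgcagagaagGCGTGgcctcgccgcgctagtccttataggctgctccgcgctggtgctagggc
CHAC1, chr15:40953221-40953470, plus strand: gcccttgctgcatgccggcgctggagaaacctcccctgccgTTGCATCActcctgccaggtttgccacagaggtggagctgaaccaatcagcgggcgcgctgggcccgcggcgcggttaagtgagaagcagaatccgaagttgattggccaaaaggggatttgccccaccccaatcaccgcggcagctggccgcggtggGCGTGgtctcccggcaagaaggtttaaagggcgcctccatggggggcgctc
PPP1R15A, chr19:48872171-48872420, plus strand: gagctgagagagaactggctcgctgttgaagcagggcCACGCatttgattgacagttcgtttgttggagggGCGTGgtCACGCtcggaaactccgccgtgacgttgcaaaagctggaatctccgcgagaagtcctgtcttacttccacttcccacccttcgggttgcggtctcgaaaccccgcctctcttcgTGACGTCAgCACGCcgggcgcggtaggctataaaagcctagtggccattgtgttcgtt
The DDIT4 window held ACGTG at 125 to 121 bases before the start and GCGTG at 219 and at 53 bases before it. It also held GCGTG at 26 to 30 bases after the start, beyond the part shown, and neither CARE nor CRE. The CHAC1 window held a CARE match on the minus strand, TTGCATCA, from 209 to 202 bases before the start, and GCGTG at 51 bases. The PPP1R15A window held the full CRE, TGACGTCA, from 58 to 51 bases before the start, beside 4 matches to GCGTG on either strand. Among the 9 genes CARE was found in 2, CHAC1 and ATF3 (TGATGGAA, from 191 to 184 bases before 1 of its 2 starts), CRE in PPP1R15A alone and ACGTG in ATF4 and DDIT4. GCGTG was found in 7, all but ATF3 and ATF5, and the endoplasmic reticulum stress element in 0. Of 35116 promoters of the same length, 3.62% held CARE, 1.85% CRE, 0.0769% the endoplasmic reticulum stress element, 21.4% ACGTG and 36.5% GCGTG. These shares are per window, whereas the counts above are per gene over all its windows. By window, CARE was in 2 of 17, CRE in 1, ACGTG in 3 and GCGTG in 12, and some windows of the same gene overlap. A match describes the letters only, and TRIB3 and DDIT3, which were called higher in R175H, had no match to CARE or CRE in their windows.

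Total counts were 6800463 to 11788035 per library. Replicates were furthest apart in GFP (chi-square per degree of freedom 5.72, against 1.21 to 1.6 in the mutants). On the log2 scale GFP replicate 1 exceeded replicate 2 by 0.25 in ATF4 and by 0.26 in NUPR1, whereas DDIT4 differed by -0.02. Because the spread was pooled over all groups, standard errors (SE) and intervals against GFP can be too narrow for genes such as ATF4 and NUPR1. GFP replicate 1 had relatively more counts for short transcripts, with a fitted excess of 0.16 on the log2 scale at the length of DDIT3 and 0.06 at that of TRIB3. The 10 genes had 109 to 12410 counts in a library, far above 3 counts, the floor of detection, which was at most 0.443 CPM (the usual depth-scaled count, with library sizes adjusted by TMM). Of 9 markers of gastric or other epithelium in the table, 8 stayed below 1 CPM in every library and 3 of these (TFF1, TFF2 and GKN1) had no count. The exception, KRT8, had 0.336 to 3.34 CPM. Of the mesenchymal markers, VIM had 4612 to 5733 CPM and FN1 33.1 to 45.4 CPM, while CDH2 had at most 0.854 CPM. Markers of endothelium were at 0 to 0.148 CPM in sum and those of HEK293 or neural cells at 6.76 to 10.1 CPM, nearly all of it NEFL. The labelled gastric origin is not visible in these markers.

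In the GFP control, levels per kilobase of the longest coding transcript (CPM per kb) fell into 2 tiers. DDIT4 had 289 and 293 CPM per kb in the 2 GFP libraries and ATF4 297 and 249, so their order was not separated. CEBPB followed with 48 and 41.3, then TRIB3 with 26.8 and 27.9 and ATF5 with 27.6 and 25.6, which overlapped each other. CHAC1 had 15.7 and 16.1 CPM per kb, and DDIT3 (10.5 and 12), ATF3 (9.71 and 9.98) and PPP1R15A (10.1 and 8.77) were lowest. ATF3 and DDIT3 did not overlap in these libraries and PPP1R15A overlapped ATF3. With the shortest annotated coding transcripts instead, mean GFP levels were 80.7 CPM per kb for ATF5, 77.9 for TRIB3, 44.6 for CEBPB and 41.5 for ATF3, so the order below ATF4 and DDIT4 depends on the transcript taken. NUPR1 was not placed, because its annotated coding transcripts run from 550 to 5491 nt and its level from 12.1 to 121 CPM per kb accordingly. ATF4 and DDIT4 were also among the most abundant genes in all libraries, at the 98.4th and 99th percentile of tested genes by mean CPM.

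In R175H 8 of the 10 genes rose against GFP and none fell. The called genes were DDIT4, DDIT3, CHAC1, TRIB3, ATF3, CEBPB, NUPR1 and ATF5, with rises between 1.3-fold and 2.73-fold, and the exceptions were ATF4 itself and PPP1R15A. A gene was called at an adjusted p below 0.05 in edgeR's quasi-likelihood test over all 13213 genes, by which 6.39% of all genes were higher and 4.59% lower in R175H. The median log2 fold change of the 10 genes was 0.44, against 0.01 for all genes tested. In 9 of the 10, both R175H libraries lay above both GFP libraries, as in 26.8% of all genes. R273H had 3 of the 10 called higher, DDIT4, TRIB3 and CHAC1, and none lower (0.757% of all genes were higher and 0.250% lower, median of the 10 genes 0.15). R248Q had DDIT4 alone called higher and none lower (4.88% of all genes were higher and 1.44% lower, median -0.01). Fitted on only the groups compared, CEBPB and NUPR1 were not called in R175H (adjusted p = 0.055 and 0.071), and none of the 10 in R273H or R248Q. The 3 comparisons share the same GFP libraries. The libraries are bulk RNA, so a change in some of the cells and a smaller change in all of them cannot be told apart.

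**Figure D1:**
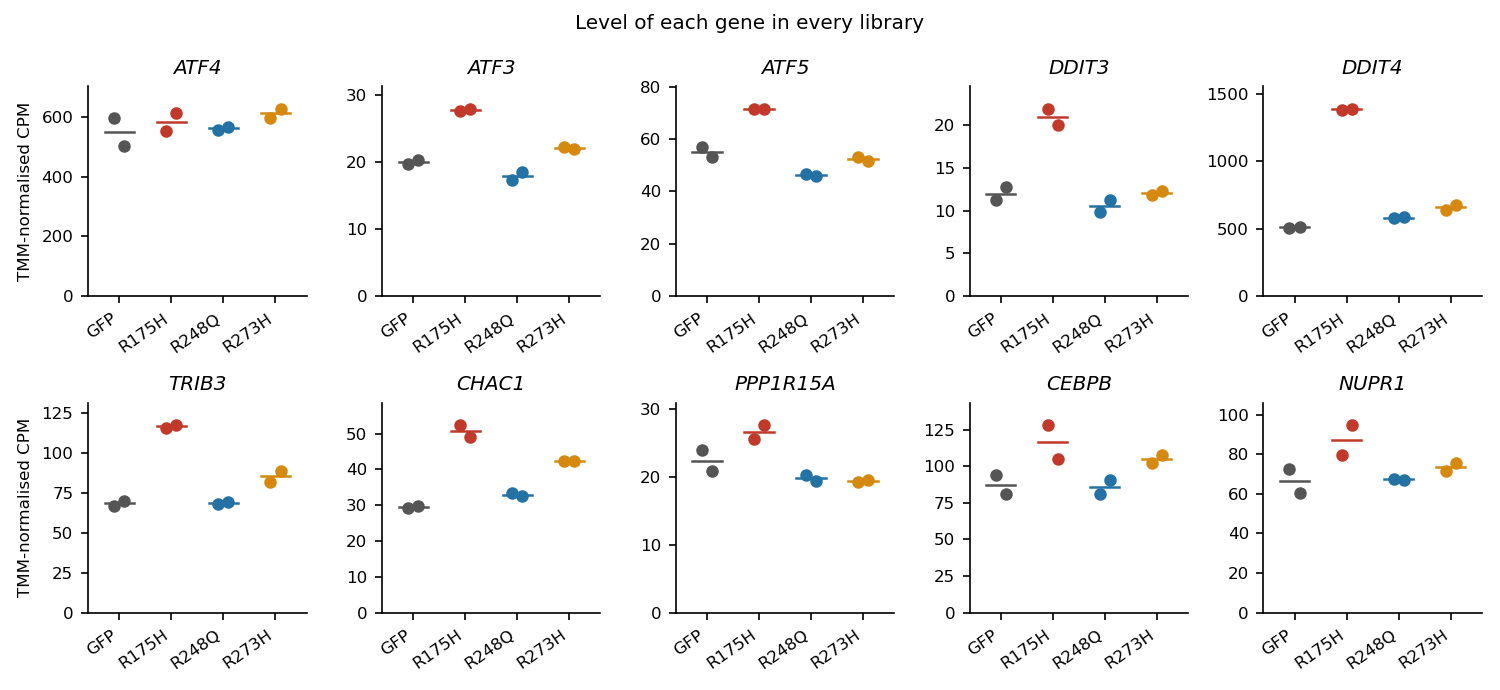
Level of each of the 10 genes in every library, in TMM-normalised CPM on an axis that starts at 0; points are the 2 libraries of a group and the bar is their mean. DDIT4 stands at 1383 and 1392 CPM in R175H and at 505 to 678 CPM in the other 6 libraries, whereas the 4 groups of ATF4 lie close together between 503 and 629 CPM.

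ATF4, the factor whose translation defines the response, had 599 and 503 CPM in GFP, 555 and 613 in R175H, 557 and 567 for R248Q and 598 and 629 for R273H. The 2 GFP libraries were the lowest and the third highest of the 8, so GFP overlapped every mutant. The log2 fold change against GFP was 0.09 ± 0.07 in R175H, 0.03 ± 0.07 in R248Q and 0.16 ± 0.07 in R273H (SE, n = 2 per group, adjusted p = 0.49, 0.85 and 0.38), with 95% intervals of -0.07 to 0.24, -0.12 to 0.18 and 0.00 to 0.31. The values depended on which GFP library was kept. Without GFP replicate 1 they were 0.22, 0.16 and 0.29 in R175H, R248Q and R273H, and without GFP replicate 2 they were -0.03, -0.09 and 0.04. Either way only 1 GFP library is left in the comparison. With the trend over transcript length removed the R273H value was 0.20 and was called (adjusted p = 0.027).

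Among the factors in the layer below ATF4, DDIT3 (CHOP), which promotes cell death in prolonged stress, had the largest change in R175H. It had 11.2 and 12.8 CPM in GFP, 22 and 20.1 in R175H, 9.89 and 11.3 for R248Q and 11.8 and 12.3 for R273H. Both R175H libraries stood above the other 6, and GFP overlapped R248Q and R273H. The rise in R175H was 0.81 ± 0.13 on the log2 scale (SE, n = 2 per group, 1.75-fold, adjusted p = 9.0e-04), while R248Q had -0.17 ± 0.14 and R273H 0.01 ± 0.13 (adjusted p = 0.49 and 0.98). DDIT3 overlaps the ends of MARS and MBD6 on the opposite strand, and the strand setting of the counting is not given, so some of its reads could belong to them. MARS, the more abundant neighbour, had 0.18 ± 0.06 in R175H and 0.19 ± 0.05 in R273H (adjusted p = 0.046 and 0.12), and its part in the DDIT3 result was not tested.

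ATF3, a stress-induced repressor and activator of the same bZIP class, had 19.7 and 20.3 CPM in GFP, 27.6 and 28 in R175H, 17.4 and 18.6 for R248Q and 22.2 and 22 for R273H. The 4 groups did not overlap, in the order R248Q, GFP, R273H, R175H. Only R175H passed the test against GFP (0.48 ± 0.10, SE, n = 2 per group, adjusted p = 0.0064), with -0.15 ± 0.10 in R248Q and 0.15 ± 0.10 in R273H. That call was lost without R175H replicate 2 (0.46, adjusted p = 0.068) and in DESeq2 (0.47, adjusted p = 0.056).

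ATF5, the relative of ATF4 that is likewise controlled through upstream reading frames and takes part in the mitochondrial stress response, had 57.0 and 53 CPM in GFP and 71.7 CPM in both R175H libraries. R248Q had 46.5 and 45.8 and R273H 53.2 and 51.5, so R248Q lay below every other library and R273H overlapped GFP. ATF5 rose in R175H by 0.38 ± 0.07 (log2, SE, n = 2 per group, adjusted p = 0.0036). In R248Q it had -0.25 ± 0.07, just outside the threshold (adjusted p = 0.055), and it was called lower without GFP replicate 2 (-0.31, adjusted p = 0.0039), where 3447 genes in all were called instead of 835. In R273H it had -0.07 ± 0.07 (adjusted p = 0.72). ATF5 overlaps NUP62 and IL4I1 on the opposite strand. NUP62 had 165 CPM in GFP and -0.12 ± 0.06 in R175H (SE, adjusted p = 0.27), IL4I1 had at most 2 counts in a library, and their part in the ATF5 result was not tested.

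CEBPB, a C/EBP factor that pairs with ATF4 and also drives inflammatory genes, had 93.8 and 80.7 CPM in GFP, 128 and 105 in R175H, 81.0 and 90.5 for R248Q and 102 and 108 for R273H. Its 2 R175H libraries differed widely, and R273H lay wholly above GFP as R175H did. It rose in R175H by 0.41 ± 0.09 (log2, SE, n = 2 per group, adjusted p = 0.012), a call lost without R175H replicate 1 (0.26, adjusted p = 0.20). R273H had 0.26 ± 0.09 (adjusted p = 0.23) and R248Q -0.03 ± 0.09 (adjusted p = 0.90). In R273H CEBPB was called without a filter beyond 1 count and with the length trend removed. Its R273H value was 0.38 without GFP replicate 1, where only 1 GFP library is left.

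Of the effectors, DDIT4 (REDD1), an inhibitor of the growth kinase complex mTORC1, had the largest change of the 10 genes. Its libraries had 505 and 513 CPM in GFP, 1383 and 1392 in R175H, 576 and 588 for R248Q and 641 and 678 for R273H. No 2 groups overlapped, and the order was GFP, R248Q, R273H, R175H. The rise in R175H was 1.45 ± 0.05 (log2, SE, n = 2 per group, 2.73-fold, adjusted p = 6.8e-11), which ranked 1 by p-value among the 13213 genes tested. It was called in all 16 alternatives, with 1.43 to 1.49. The rises in R273H (0.37 ± 0.05, 1.3-fold, adjusted p = 0.0031) and R248Q (0.19 ± 0.05, 1.14-fold, adjusted p = 0.032) were smaller. The R273H call was lost without R273H replicate 2 (0.33, adjusted p = 0.072). The R248Q call was lost when any 1 of the 6 mutant libraries was left out (0.18 to 0.21, adjusted p = 0.063 to 0.27).

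DDIT4 is known to respond to low oxygen through HIF as well as to ATF4. In R175H all 23 tested genes of a hypoxia list rose (median log2 fold change 0.89), against 6.39% of all genes (median 0.01). The list was chosen with earlier results of these data known, so its contrast with all genes is not independent of them. The list was led by NDRG1 (2.14 ± 0.12), MIR210HG (2.05 ± 0.17) and CA9 (1.84 ± 0.13, SE), and DESeq2 called 21 of the 23 higher. In R248Q 1 of the 23 rose (HK2) and 1 fell (ADM), with a median of 0.00, and neither was called without GFP replicate 1 or in DESeq2. Over all genes 4.88% were higher and 1.44% lower in R248Q. In R273H edgeR, DESeq2 and limma-voom called 0 of the 23 (4 had an unadjusted p below 0.05), with a median of 0.04. The part of the hypoxia genes in the DDIT4 result was not tested.

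TRIB3, a pseudokinase that binds the kinase AKT and dampens ATF4 and DDIT3, had 67.0 and 69.6 CPM in GFP, 116 and 117 in R175H, 68.3 and 69.1 for R248Q and 81.7 and 88.9 for R273H. R248Q overlapped GFP, R273H lay above both and R175H above all. TRIB3 rose in R175H by 0.77 ± 0.07 (log2, SE, n = 2 per group, 1.71-fold, adjusted p = 2.7e-06) and in R273H by 0.32 ± 0.07 (1.25-fold, adjusted p = 0.032). R248Q had 0.01 ± 0.07, with a 95% interval of -0.14 to 0.16. The R273H call was lost when any 1 of the 6 mutant libraries was left out (0.26 to 0.38, adjusted p = 0.077 to 0.34), and also in DESeq2 (adjusted p = 0.11).

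CHAC1, which degrades glutathione and is known as a target of ATF4, had 29.1 and 29.8 CPM in GFP, 52.4 and 48.9 in R175H, 33.3 and 32.6 for R248Q and 42.2 and 42.4 for R273H. The 4 groups did not overlap and stood in the same order as those of DDIT4. CHAC1 rose by 0.78 ± 0.09 in R175H (1.71-fold, adjusted p = 2.5e-05) and by 0.52 ± 0.08 in R273H (1.44-fold, SE, n = 2 per group, adjusted p = 0.0051), and had 0.16 ± 0.09 in R248Q (adjusted p = 0.28). The R273H call was lost without R273H replicate 1 (0.53, adjusted p = 0.11) or replicate 2 (0.52, adjusted p = 0.072).

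NUPR1, a small nuclear protein that ATF4 is known to induce, had 72.5 and 60.5 CPM in GFP, 79.8 and 94.9 in R175H, 67.7 and 67.2 for R248Q and 71.8 and 75.6 for R273H. Both R175H libraries exceeded the other 6, and GFP overlapped R248Q and R273H. It rose in R175H by 0.40 ± 0.09 (log2, SE, n = 2 per group, adjusted p = 0.012), a call lost without R175H replicate 2 (0.26, adjusted p = 0.21). R248Q had 0.02 ± 0.09 and R273H 0.15 ± 0.09 (adjusted p = 0.93 and 0.54).

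PPP1R15A (GADD34), which brings the phosphatase to eIF2 and so closes the response, had 24.1 and 20.8 CPM in GFP, 25.7 and 27.7 in R175H, 20.4 and 19.4 for R248Q and 19.3 and 19.6 for R273H. R175H lay above the GFP libraries, and R248Q and R273H below them. None of these differences passed the test, with 0.25 ± 0.11 in R175H, -0.18 ± 0.11 in R248Q and -0.21 ± 0.11 in R273H (log2, SE, n = 2 per group, adjusted p = 0.14, 0.33 and 0.43). The 95% interval in R175H, 0.02 to 0.48, lies below the interval of DDIT4, TRIB3, CHAC1 and DDIT3.

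**Figure D2:**
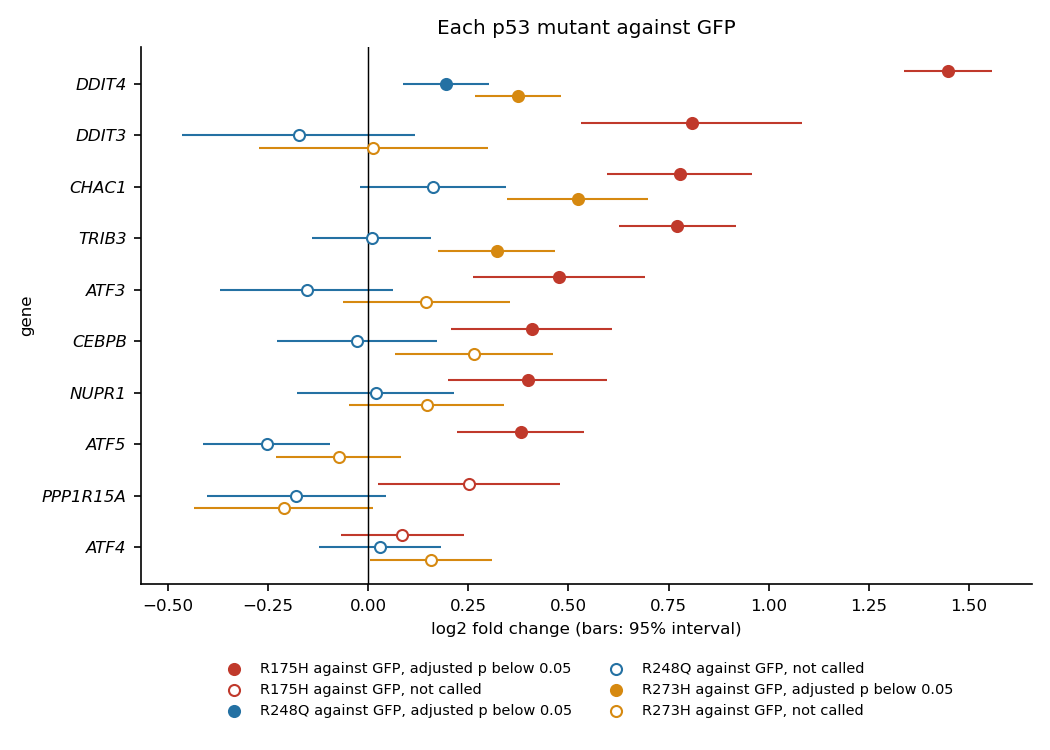
Log2 fold change of each gene in the 3 mutants against GFP, with 95% intervals from edgeR's fit; filled points are called at an adjusted p below 0.05 and open points are not. In R175H 8 of the 10 points are filled, from 0.38 for ATF5 to 1.45 for DDIT4, in R273H 3 and in R248Q 1.

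The mutants were also compared with each other, which does not involve the GFP libraries other than through the pooled spread. In R248Q 9 of the 10 genes were called lower than in R175H and ATF4 alone was not (3.95% of all genes were lower). DDIT4 differed by -1.25 ± 0.05, DDIT3 by -0.98 ± 0.13, TRIB3 by -0.76 ± 0.07 and ATF5 by -0.63 ± 0.07 (log2, SE, n = 2 per group, adjusted p = 5.4e-10, 1.6e-04, 2.5e-06 and 5.4e-05). ATF3 had -0.63 ± 0.10, CHAC1 -0.62 ± 0.08, CEBPB -0.44 ± 0.09, PPP1R15A -0.43 ± 0.11 and NUPR1 -0.38 ± 0.09. For ATF4 the difference was -0.06 ± 0.07, with a 95% interval of -0.21 to 0.10. The call of PPP1R15A was lost in DESeq2 (-0.42) and without any 1 of the 4 libraries compared (-0.48 to -0.37), that of NUPR1 without R175H replicate 2, R248Q replicate 1 or R248Q replicate 2 (-0.24, -0.38 and -0.37), and that of CEBPB without R175H replicate 1 or R248Q replicate 1 (-0.29 and -0.35). With 1 of these libraries left out, 6 to 7 of the 10 were called.

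In R273H 5 of the 10 were called lower than in R175H (2.22% of all genes were lower). They were DDIT4 (-1.07 ± 0.05, adjusted p = 2.8e-09), DDIT3 (-0.79 ± 0.13, adjusted p = 0.0015), PPP1R15A (-0.46 ± 0.11, adjusted p = 0.021), ATF5 (-0.45 ± 0.07, adjusted p = 0.0018) and TRIB3 (-0.45 ± 0.07, SE, n = 2 per group, adjusted p = 7.8e-04). ATF3 had -0.33 ± 0.10 and CHAC1 -0.25 ± 0.08 (adjusted p = 0.074 and 0.093). NUPR1 had -0.25 ± 0.09, CEBPB -0.14 ± 0.09 and ATF4 0.07 ± 0.07 (adjusted p = 0.15, 0.46 and 0.68). Without GFP replicate 1 or GFP replicate 2, ATF3, CHAC1 and NUPR1 were called as well, giving 8, while the calls over all genes went from 479 to 1640 and 1631. The PPP1R15A call was lost in DESeq2 (-0.46) and without any 1 of the 4 libraries compared (-0.51 to -0.40), and the ATF5 call without R273H replicate 2 (-0.43, adjusted p = 0.055). Without R273H replicate 2, 3 of the 10 were called.

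Between the contact mutants, R273H and R248Q, edgeR called 0 of the 10 (0.151% of all genes were called), and so did DESeq2 and limma-voom, although 6 of the 10 had an unadjusted p below 0.05. In 9 of the 10 both R273H libraries lay above both R248Q libraries, as in 23.6% of all genes, and PPP1R15A was the exception. The largest differences were those of CHAC1 (0.36 ± 0.08, 95% interval 0.19 to 0.53, adjusted p = 0.10), TRIB3 (0.31 ± 0.07, 0.17 to 0.45, adjusted p = 0.099) and ATF3 (0.30 ± 0.10, 0.09 to 0.50, SE, n = 2 per group, adjusted p = 0.42). CEBPB had 0.29 ± 0.09, DDIT4 0.18 ± 0.05 and ATF5 0.18 ± 0.07. Without GFP replicate 1 or GFP replicate 2 5 of the 10 were called higher in R273H, namely CHAC1, TRIB3, CEBPB, DDIT4 and ATF4, while the calls over all genes went from 20 to 574 and 573.

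**Figure D3:**
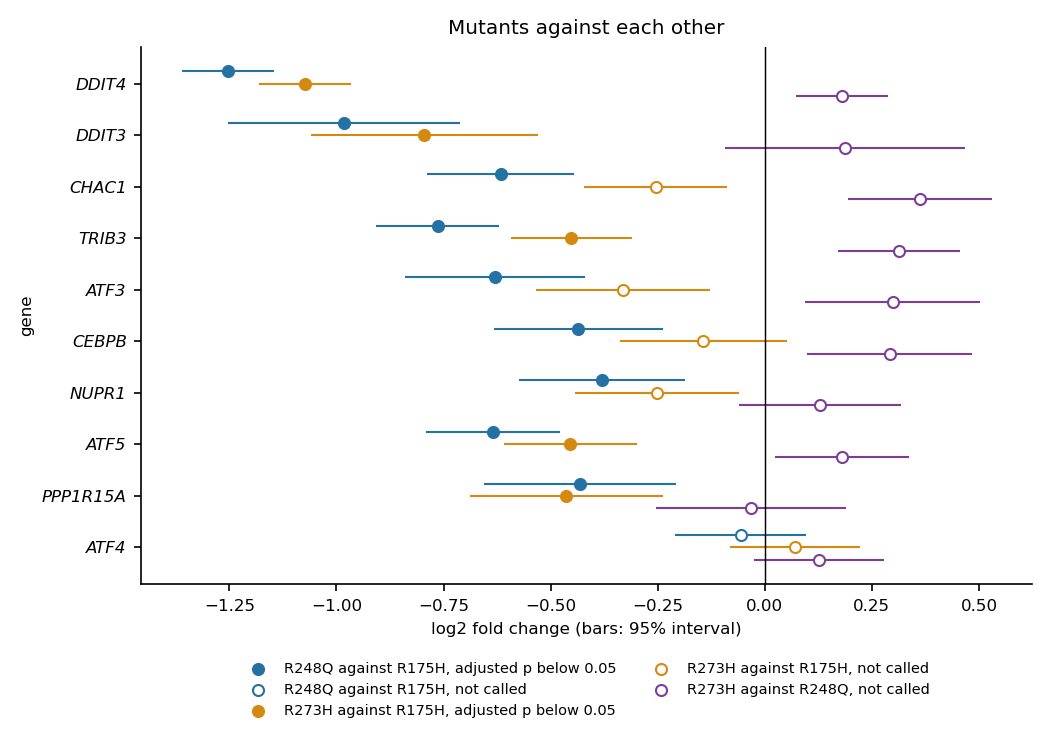
Log2 fold change of each gene between pairs of mutants, with 95% intervals from the same fit; filled points are called at an adjusted p below 0.05 and open points are not. All 10 points for R248Q against R175H lie left of 0 and 9 are filled, and for R273H against R248Q 9 of the 10 points lie right of 0 and none is filled.

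The upstream part of the pathway was described from lists of other genes, which were likewise chosen with earlier results of these data known. Of 9 eIF2 kinases and their activators, 1 rose in R175H, KIAA0141 (DELE1, which relays mitochondrial stress to an eIF2 kinase), by 0.40 ± 0.07 (log2, SE, adjusted p = 0.0024), with a list median of 0.11. In R248Q GCN1L1 (GCN1, a partner of the amino acid sensor kinase) rose by 0.39 ± 0.07 (adjusted p = 0.0047), and in R273H edgeR, DESeq2 and limma-voom called 0 of 9 (2 with an unadjusted p below 0.05). Over all genes 6.39% were higher in R175H and 4.88% in R248Q, so 1 call among 9 is near those shares. Of 16 subunits of eIF2, its exchange factor and its phosphatases, EIF2S1, the subunit that the kinases phosphorylate, fell in R175H by 0.33 on the log2 scale (adjusted p = 0.0033). It was the 1 of 16 called, a share near the 4.59% of all genes that were lower. It was also the gene with the lowest p in R248Q (-0.21 ± 0.06) and R273H (-0.15 ± 0.06), where none of the 16 was called by any of the 3 tools (3 and 2 with an unadjusted p below 0.05). The list's medians were -0.03, -0.09 and -0.06 in R175H, R248Q and R273H. With the length trend removed, 1 more gene of each of these lists was called in R175H, 1 fell among the 16 in R248Q and 1 rose among the 9 in R273H.

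Among 24 tested factors of a bZIP list drawn up around ATF4, ATF3 and CHOP, 4 rose in R175H and none fell (median 0.20). Pairing with these 3 is not established for every factor in the list. Over all genes 6.39% were higher and 4.59% lower, with a median of 0.01. The 4 included JUN (0.55 ± 0.10), an AP-1 subunit, its relative JUND (0.40 ± 0.07), and ATF7 (0.32 ± 0.09, SE), which binds the CRE. In R248Q CREB3L2, a factor cleaved from the endoplasmic reticulum membrane, was the 1 called (0.38 ± 0.09), a share of the 24 near the 4.88% of all genes that were higher. In R273H edgeR, DESeq2 and limma-voom called 0 of 24 (2 with an unadjusted p below 0.05). For R175H DESeq2 called 3 higher and none lower, and with the length trend removed 5 rose and 1 fell.

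Further along the response, 12 of 30 other genes listed as induced by ATF4 or CHOP rose in R175H and 2 fell (median 0.16). The 30 include TRIB1, TRIB2 and CHAC2, relatives of TRIB3 and CHAC1. Over all genes 6.39% were higher and 4.59% lower (median 0.01), so the 2 that fell are near the share of lower genes. GDF15, a stress cytokine (1.5 ± 0.26, mean over all libraries 5.08 CPM), FGF21, a metabolic hormone (1.23 ± 0.27, 3.24 CPM), and CTH, an enzyme of cysteine synthesis (0.91 ± 0.10, SE), rose most. JMJD6, a nuclear oxygenase, fell by 0.77 and the autophagy receptor SQSTM1 by 0.20 on the log2 scale. R248Q and R273H each had 3 called higher and none lower, with medians of 0.04 and 0.09. Over all genes 4.88% were higher in R248Q and 0.757% in R273H. SESN2, an inhibitor of mTORC1, and ADM2, a secreted peptide, were called in both (SESN2 0.38 ± 0.10 and 0.43 ± 0.10, ADM2 0.33 ± 0.08 and 0.40 ± 0.08), beside DDR2 in R248Q (0.38 ± 0.09) and PCK2 in R273H (0.40 ± 0.07, SE). With the length trend removed the R273H count was 6, and R248Q had 4 higher and 1 lower. DESeq2 called 1 in R248Q, and in R175H 10 higher and 2 lower. With the length trend removed R175H had 15 higher and 2 lower.

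Amino acid transporters, synthesis enzymes and tRNA synthetases of the ATF4 response rose in R175H in 24 of 32 tested cases and fell in none (median 0.28). Over all genes 6.39% were higher and 4.59% lower in R175H (median 0.01). SLC7A11, the cystine transporter, had 0.75 ± 0.07, SLC1A4, a neutral amino acid transporter, 0.66 ± 0.09 and ASNS, asparagine synthetase, 0.64 ± 0.06 (log2, SE). DESeq2 called 22 of the 32 higher in R175H, and with the length trend removed 26 rose. In R248Q 7 of 32 rose and none fell (median 0.09, 4.88% of all genes higher), with SLC7A11 at 0.77 ± 0.07. In R273H 8 of 32 rose and none fell (median 0.19, 0.757% of all genes higher). There SLC7A11 had 0.52 ± 0.07, the mitochondrial folate enzyme ALDH1L2 0.44 ± 0.09 and the transaminase GPT2 0.40 ± 0.06. The R273H count was 20 without GFP replicate 1 and 21 with the length trend removed, and the R248Q count was 11 with that trend removed.

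The chaperone genes of the ATF6 and XBP1 branches, which respond to unfolded protein in the endoplasmic reticulum beside the eIF2 kinase PERK, went the other way in R175H, where 11 of 19 fell and 3 rose (median -0.22). Over all genes 4.59% were lower and 6.39% higher in R175H (median 0.01). MANF, a secreted factor, had -0.65 ± 0.08, HSPA5 (BiP), the main chaperone, -0.53 ± 0.05, and SDF2L1 -0.47 ± 0.08 (log2, SE), while EDEM1, DERL1 and SEL1L, which act in degradation from the endoplasmic reticulum, rose by 0.35, 0.27 and 0.23. DESeq2 called 10 of the 19 lower and 1 higher in R175H, and with the length trend removed 11 fell and 2 rose. PERK itself, EIF2AK3, had 0.18 ± 0.12 in R175H (adjusted p = 0.36). In R248Q 4 of the 19 fell and none rose (median -0.12, 1.44% of all genes lower). In R273H edgeR, DESeq2 and limma-voom called 0 of 19 (7 with an unadjusted p below 0.05, median -0.09). In R273H 1 fell without GFP replicate 1 and 2 with the length trend removed, and in R248Q DESeq2 called 2.

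**Figure D4:**
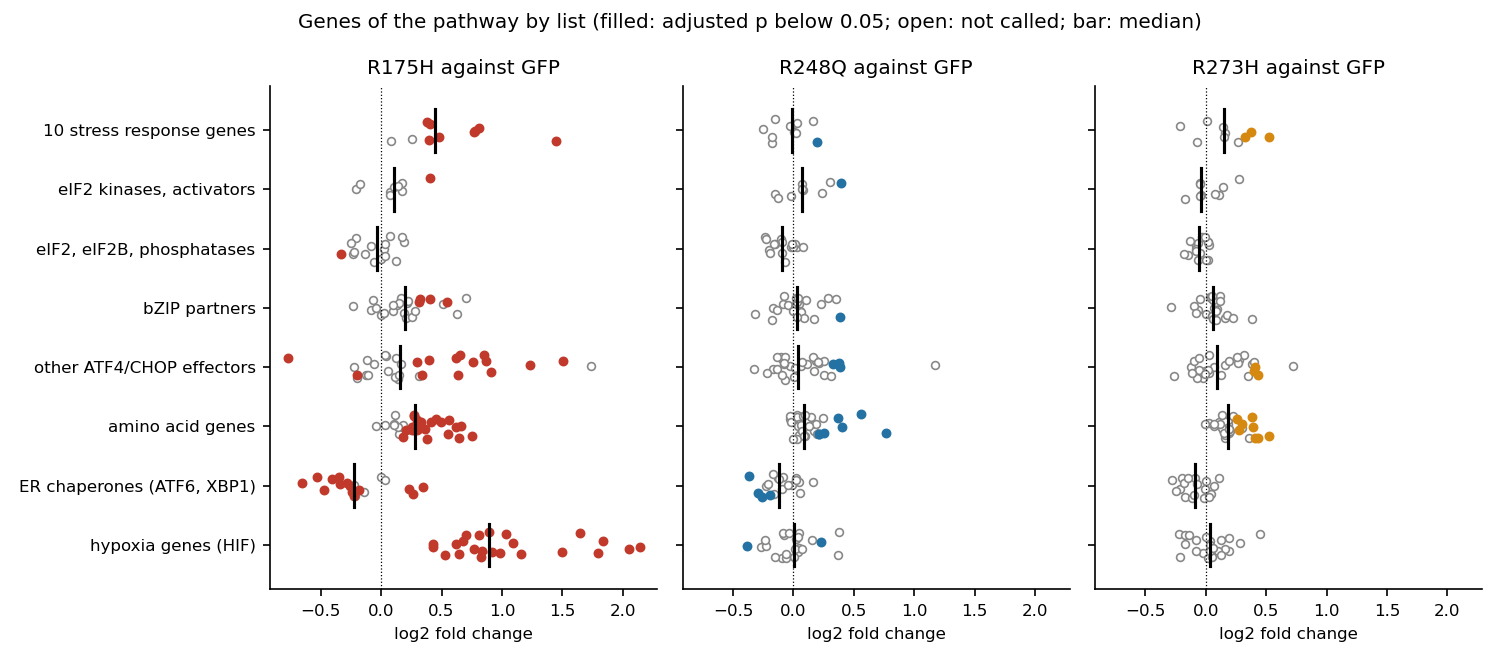
Log2 fold change against GFP of the 10 stress response genes and of the genes of 7 pathway lists, 1 panel per mutant; each point is a gene, filled where called at an adjusted p below 0.05, and the bar is the list's median. In R175H the medians run from -0.22 for the chaperones of the endoplasmic reticulum to 0.89 for the hypoxia genes.

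The genes with the pattern most like that of each called gene over the 4 group means were sought among 9132 genes with at least 10 CPM. Likeness was the root mean square difference of centred log2 CPM. Genes with antisense, readthrough or placeholder names, such as those starting with KIAA or FAM, had been left out. For DDIT4 the nearest was PFKFB4, a regulator of glycolysis (0.07), with log2 fold changes of 1.65, 0.37 and 0.45 in R175H, R248Q and R273H. AK4 and NRN1 (both 0.12) followed. For CHAC1 they were PCK2 (0.06), XPNPEP2 (0.06) and SLC1A4 (0.07), and for TRIB3 XPNPEP2 (0.03), TSC22D3 (0.04) and DEPTOR (0.05), an inhibitor of mTOR. PFKFB4 is in the hypoxia list, as is ANGPTL4 (0.05), which came after WNT6 and before WDR54 (0.06) for DDIT3. The share of listed genes among the 9132 was not taken. PCK2 and SLC1A4 are in the lists of ATF4 effectors and amino acid genes, and the fold changes of XPNPEP2 were 0.78, 0.06 and 0.39. WNT6 (0.05) was nearest to DDIT3, TENM2 (0.02) to ATF3, WBSCR27 (0.01) to ATF5, PTP4A3 (0.02) to CEBPB and ALX1 (0.01) to NUPR1, all at 10.1 to 17.7 CPM on average.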

How the data were processed

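The authors deposited raw read counts per gene symbol, from mRNA libraries (Kapa kit, per the labels' protocols), made with bcl2fastq and STAR 2.5 on hg19, per the submitters' processing notes. How reads were counted, with which annotation and strand setting, is not stated in those notes as held here, so genes overlapping on opposite strands are uncertain.

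All 8 libraries entered 1 edgeR quasi-likelihood fit (edgeR 4.0.16, R 4.3.3) of group means after TMM scaling, with 4 residual degrees of freedom. The spread of each gene was moderated towards that of other genes (median prior degrees of freedom 11.9). Of 25435 genes, filterByExpr (count 10, total 15) left 13213 with 99.9% of the counts. Benjamini-Hochberg adjustment ran over those genes in each of 6 comparisons. SE was taken from the fold change and its F statistic, and 95% intervals from the total degrees of freedom. The procedure was tested on simulated data.

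The 10 genes and the 7 pathway lists were chosen with earlier results of these data known. All 10 were named. From each list, up to 3 called genes per direction with the largest change and at least 1 CPM were named, and for each called gene its nearest genes by group means (log2 of CPM plus 0.5). EIF2AK3, MARS and the relatives in the closing section were named outside that rule, the relatives after their values were seen.

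Values of single genes and counts of calls among the 10 and over all genes were recomputed with size factors from DESeq2, with no scaling beyond library size, without a filter beyond 1 count, with DESeq2 1.42.0 and limma-voom (limma 3.58.1), on just the groups compared, with a replicate block, and without each library, where a lone library is assumed to vary like the others. A length correction used a loess (span 0.3) on log2 of the longest GENCODE 29 transcript, known for 93.3% of tested genes. Replicate numbers did not pair the libraries (correlations of deviations -0.244 to 0.073). The pathway lists were recomputed with DESeq2 and limma-voom and, without GFP replicate 1 and with the length correction, in fits added after seeing the data. The check of the labels by the overexpressed gene, and 1 marker list, are not reported here.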

Additional observations from a re-analysis of the deposited data

How the results depend on the processing

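Of 960 values of single genes under the alternatives, 866 kept their direction and their side of the threshold, 45 lost a call, 36 gained one and 13 changed sign. DDIT3, DDIT4, TRIB3, CHAC1 and ATF5 in R175H against GFP were called in all 16 alternatives. The number of the 10 genes called in R248Q against GFP was 1, and 0 with only the groups compared or with a replicate block. In R273H against GFP it was 3, and 5 with the length trend removed, 0 with only the groups compared and 2 with the block. In R273H against R175H it was 5, and 8 with only the groups compared, and in R273H against R248Q it was 0, and 3 with no filter beyond 1 count and 5 with only the groups compared. The block gave 8 in R175H against GFP, 9 in R248Q against R175H, 5 in R273H against R175H and 0 in R273H against R248Q, the same counts as without it. With 1 library left out the numbers were 6 to 9 in R175H against GFP, 0 to 2 in R248Q against GFP, 0 to 5 in R273H against GFP, 6 to 9 in R248Q against R175H, 3 to 8 in R273H against R175H and 0 to 5 in R273H against R248Q. The cause of these changes was not tested.

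The sign changes, none of a called value, were these. With the length trend removed, R248Q against GFP had 0.066 for CEBPB and -0.058 for NUPR1. With 1 library left out, R248Q against GFP ran from -0.13 to 0.087 for CEBPB, -0.104 to 0.156 for NUPR1, -0.0196 to 0.035 for TRIB3 and -0.091 to 0.16 for ATF4. ATF4 ran from -0.033 to 0.22 in R175H against GFP and from -0.13 to 0.018 in R248Q against R175H. DDIT3 ran from -0.0799 to 0.106 in R273H against GFP, CEBPB from -0.29 to 0.0012 in R273H against R175H and PPP1R15A from -0.072 to 0.0013 in R273H against R248Q. Over all genes, the counts called in R175H, R248Q and R273H against GFP, R248Q and R273H against R175H and R273H against R248Q, 1451, 835, 133, 947, 479 and 20 in that order, were 803, 477, 94, 522, 277 and 18 in DESeq2, 538, 391, 6, 2573, 1354 and 816 with only the groups compared, 1925, 1439, 503, 1368, 759 and 176 without the filter, 1044, 538, 58, 637, 318 and 4 with the block, and 2036, 860, 290, 1480, 1022 and 29 with the length trend removed. With 1 library left out they were 463 (without R175H replicate 1) to 3392, 226 (without R248Q replicate 2) to 3447, 8 (without R273H replicate 1) to 2258, 231 (without R248Q replicate 1) to 2435, 117 (without R273H replicate 2) to 1640 and 0 (without R273H replicate 2) to 574. The highest came without GFP replicate 2 in the first 4 and without GFP replicate 1 in the last 2, so the shares of all genes called move with the libraries used. The length of NUPR1 is uncertain, and so is its corrected value.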

Other observations

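Of 9 tested relatives of the 10 genes, chosen after their values were seen, CEBPG was called in R175H against GFP and the other 8 were not (edgeR, adjusted p from 0.076). Over all genes 6.39% were higher and 4.59% lower in R175H, so 1 call among 9 is near those shares. CHAC2, which like CHAC1 acts on glutathione, had 27.8 ± 0.47 CPM in GFP and 23.8 ± 0.73 in R175H (SD, n = 2 per group), which is -0.22 ± 0.10 in log2 (SE, edgeR adjusted p = 0.18). TRIB1 and TRIB2, pseudokinases related to TRIB3, had 0.06 ± 0.07 and -0.20 ± 0.13 in R175H (SE, adjusted p = 0.61 and 0.34). PPP1R15B, the constitutive partner of the eIF2 phosphatase, had -0.0011 ± 0.071 (adjusted p = 0.996), and JDP2, a relative of ATF3, -0.07 ± 0.08 (adjusted p = 0.63). DDIT4L, the relative of DDIT4, had 0.37 ± 0.13 against GFP (adjusted p = 0.076) and was called lower in R248Q than in R175H (-0.46 ± 0.13, adjusted p = 0.036). Of the C/EBP factors, CEBPG, a partner of ATF4, rose in R175H by 0.31 ± 0.07 (adjusted p = 0.0063), while CEBPA and CEBPD had 0.13 ± 0.11 and 0.19 ± 0.13 (adjusted p = 0.47 and 0.36). None of these 9 relatives was called in R248Q or R273H against GFP, where the adjusted p ran upward from 0.36. Over all genes 4.88% were higher and 1.44% lower in R248Q, and 0.757% and 0.250% in R273H, so no call among 9 is near those shares too.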
